A study of Mus musculus with 1024 samples.

Results

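Heat shock and chaperone genes were followed here as 10 members of 24422 genes in a table of single aortic cells. The members were taken by name, as the Hsp70, Hsp90, Hsp110, Hsp40 and small heat shock genes and the chaperonin subunit most often read as a heat shock response, and the rule that selects them uses no threshold on a measured value. They were divided into 6 genes known to be induced by stress (Hspa1a, Hspa1b, Hsph1, Dnajb1, Hspb1 and Hsp90aa1) and 4 that are made without it (Hspa8, Hsp90ab1, Hspe1 and Hspa5).

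The aortic cells came from WT mice and from mice with endothelial deletion of amotl2 (amotl2 ec-/ec-, KO), 1 cell to a well, and their full-length cDNA was read by Smart-seq2 without molecular identifiers. All mice were 3 months old, and every well carries the strain label Amotl2flow/flow / Cdh5-RREert /ROSA26-EYFP. In this strain Cre is driven by the endothelial Cdh5 promoter and switches on EYFP, and in KO mice it was induced with tamoxifen. WT wells carry the same label, although their EYFP counts were few (values below). A well was labelled either Endothelial, sorted as Cd31+Cd45-, or DoubleNegative, sorted as Cd31-Cd45-. Both gates came from the same pools of enzyme-digested aorta in 2 preparations per genotype. The genotype labels number these as sorts, and they are called preparations here. The labels name no single mouse, so counts were summed into 8 samples, 1 for each genotype, gate and preparation, and the p-values measure the spread between preparations of pooled mice. WT and KO were on separate plates in preparation 1, where plate and genotype cannot be told apart, and shared 1 plate in preparation 2.

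A floor of 20000 gene counts and 500 genes left 784 of 1024 wells, of which 676 were Cd31+ and 108 Cd31-. The median counts per well ranged from 46891 to 252839 over the 8 samples, and the totals from 926398 to 94881185. Markers held to the gates, with 10 endothelial genes summing to 14408 to 17022 CPM (counts scaled to 1000000 gene counts per sample) in Cd31+ and 24.8 to 1233 CPM in Cd31-, where the highest sample, WT of preparation 2, held 1 endothelial-like well. Ptprc, the leukocyte marker Cd45, was at 0 in 7 samples and at 0.0105 CPM in the KO Cd31+ sample of preparation 1. The 4 adipocyte markers (Cfd, Adipoq, Cidec and Plin1) summed to 714 CPM in the WT Cd31+ sample of preparation 1, to 0.285 CPM in the KO Cd31+ sample of that preparation and to 0 in the other 6 samples. EYFP stood at 2.38 and 0.353 CPM in WT and at 113 and 85.5 CPM in KO Cd31+ samples, and at 0 in every Cd31- sample. Amotl2 stood at 59.9 and 94.0 CPM in WT and at 51.9 and 45.7 CPM in KO Cd31+ samples, and counts per gene do not resolve the deleted exon.

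Chaperones bind unfolded or partly folded proteins and keep them from aggregating. On heat or other protein-damaging stress the transcription factor Hsf1 binds heat shock elements, which are inverted repeats of the unit GAA, and raises the inducible genes within minutes, whereas the constitutive chaperones fold new proteins in every cell. Vascular smooth muscle is known to hold abundant small heat shock proteins, and enzymatic digestion of tissue is known to induce heat shock and immediate early genes in cells. Hspa1a and Hspa1b encode nearly the same inducible Hsp70 protein, and Hspa8 is its constitutive counterpart. Dnajb1 is the Hsp40 partner that hands clients to Hsp70, and Hsph1 is an Hsp110 that exchanges its nucleotide. Hspb1 is a small heat shock protein that binds actin filaments and unfolded clients. Hsp90aa1 and Hsp90ab1 are the inducible and constitutive cytosolic Hsp90. Hspe1 is the cap of the mitochondrial chaperonin, and Hspa5 (BiP) is the Hsp70 of the endoplasmic reticulum (ER).

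In GRCm38 (GENCODE M21), Hspa1a lies at chr17:34969190-34972156 and Hspa1b at chr17:34956436-34959238, both on the minus strand and both in a single exon. Hsp90ab1 lies on the same chromosome at chr17:45567775-45573271, minus strand. Hsph1 (chr5:149614287-149636376, minus) and Hspb1 (chr5:135887919-135889563, plus) share chromosome 5. The other members lie at chr8:83608193-83612653 (Dnajb1, plus), chr12:110690605-110702728 (Hsp90aa1, minus), chr9:40800984-40810087 (Hspa8, plus), chr1:55088132-55091307 (Hspe1, plus) and chr2:34771970-34777547 (Hspa5, plus).

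The promoters of the Hsp70 pair are shown because these were the members with the lowest levels in KO relative to WT Cd31+ cells. These are the 250 bases before the start of each gene in RefSeq (GRCm38.p6, minus strand, chr17:34972157-34972406 and chr17:34959239-34959488), with the match to GAANNTTC in capitals.
Hspa1a: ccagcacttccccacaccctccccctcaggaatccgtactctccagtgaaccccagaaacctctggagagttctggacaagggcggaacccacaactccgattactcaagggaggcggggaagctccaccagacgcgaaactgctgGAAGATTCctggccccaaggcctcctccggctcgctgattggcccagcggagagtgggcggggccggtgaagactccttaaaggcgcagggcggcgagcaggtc
Hspa1b: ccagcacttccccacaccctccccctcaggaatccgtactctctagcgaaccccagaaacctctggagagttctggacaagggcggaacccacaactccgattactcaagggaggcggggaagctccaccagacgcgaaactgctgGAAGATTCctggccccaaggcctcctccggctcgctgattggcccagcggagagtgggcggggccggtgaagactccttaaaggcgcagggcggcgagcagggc

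The windows of the pair were identical at 247 of 250 bases, and the match began 104 bases before the start in both. The motif search covered GAANNTTC and TTCNNGAA, each its own reverse complement, and the 3-unit forms GAANNTTCNNGAA and TTCNNGAANNTTC, which are reverse complements of each other. Of all 32851 RefSeq promoter windows of this length, 12.8% held a 2-unit match and 0.466% a 3-unit match, and windows were found for 7 of the 10 members (not for Hsp90aa1, Hspa8 and Hsp90ab1). The stretches that hold the matches of 3 other members are given to show how the elements differ between them, with 2-unit matches in capitals: Hsph1 at chr5:149636351-149636380 (minus), Hspb1 at chr5:135887786-135887845 (plus) and Hspe1 at chr1:55088038-55088097 (plus).
Hsph1: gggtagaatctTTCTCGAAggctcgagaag
Hspb1: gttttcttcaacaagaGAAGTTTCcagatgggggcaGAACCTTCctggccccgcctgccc
Hspe1: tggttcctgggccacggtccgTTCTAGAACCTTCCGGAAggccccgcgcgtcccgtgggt

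Hspe1, counted here as constitutive, was the only member window with a 3-unit match, and its 2-unit matches, 3 in number, overlapped into 1 run. Hspb1 held 2 separate 2-unit matches and Hsph1 held 1 in the windows of both its RefSeq starts. The windows of Dnajb1 and Hspa5 held none of these letters. A match is a description of the sequence and not a measured binding site.

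Reads that align to several places were left out by the authors' counting, and they made up 32% of all counts in the table. To show what that means for the members, every 50-base window of the longest coding transcript of each member was looked for in the transcripts of all other annotated genes. Hspa1b shared 62.3% of its windows with Hspa1a, which left 1038 windows found in no other gene, and Hspa1a was left with 983. Hspa8 kept only 590 such windows, since 74.8% of its windows recur in other genes, mostly its processed copy Gm15459. Hspb1 shared 51.6% (with Hsp25-ps1), Hsp90aa1 58.5% and Hspe1 44.8%, whereas Hsp90ab1 shared 4.49%, Dnajb1 0.441% and Hsph1 and Hspa5 none. Levels of the sharing members can therefore be low estimates. Counts of Hspa1a and Hspa1b rest on reads placed at a single copy, and how the reads left out would divide between the copies is not known.

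Hsp90ab1 was the most abundant member in every sample, and Hsph1 had the lowest mean per length in Cd31+ cells. The 10 members together took 0.361% to 0.438% of the gene counts in Cd31+ samples and 0.453% to 0.586% in Cd31- samples. On the scale of CPM per kb of exon in Cd31+ samples (mean ± SD, n = 4), Hsp90ab1 stood at 724 ± 78.8, followed by Hspa5 at 181 ± 19.3 and Hspa8 at 149 ± 21.4. The ranges of Hspa5 and Hspa8 overlapped. Hspb1 followed at 93.4 ± 26.5, a range that only Hspa1b reached from below. Hspe1 (45.8 ± 7.88) lay wholly above Hsp90aa1 (29.0 ± 5.43) and Dnajb1 (24.7 ± 8.15), whose ranges overlapped. The ranges of Hspa1b (41.7 ± 47.6) and Hspa1a (27.2 ± 17.9) overlapped all 3 of these, so the place of the pair is not resolved, and Hsph1 lay lowest at 6.82 ± 1.28 with a range that overlapped that of Hspa1b, which fell to 5.29 in 1 KO sample. Counted per kb of windows found in no other gene, a measure added after seeing the data, Hspa8 rose to 1086 and Hsp90ab1 to 920 CPM per kb. On this scale Hspb1 stood at 226 and Hspa5 at 212 CPM per kb. The windows come from the longest coding transcript, whereas the exon length joins all transcripts. The order of the members therefore depends on the length used and on how shared sequence is treated.

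The question of the gates was whether endothelial cells and the other cells of the aortic wall carry different chaperone levels. Of the 6 inducible members, 3 were lower in Cd31+ than in Cd31- cells, and none of the 4 constitutive members was called. With edgeR's quasi-likelihood test over 12729 genes, 3 of the 10 members fell in Cd31+ relative to Cd31- (Hsph1, Hspb1 and Hsp90aa1, adjusted p under 0.05) and 0 rose. Over all genes tested, 9.25% fell and 9.79% rose. The median log2 fold change was -1.15 for the 6 inducible members and -0.43 for the 4 constitutive members, beside 0.15 for all genes tested.

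Hsph1 stood at 44.6 and 41.6 CPM in WT and at 62.8 and 49.1 CPM in KO Cd31+ samples, against 70.4 and 247 CPM in WT and 171 and 167 CPM in KO Cd31- samples (preparation 1 before preparation 2 throughout). No Cd31+ sample reached the lowest Cd31- sample. The log2 fold change was -1.85 ± 0.39 (SE, n = 4 samples per gate, edgeR adjusted p = 0.0124).

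Hsp90aa1 stood at 114 and 141 CPM in WT and at 88.6 and 112 CPM in KO Cd31+ samples, against 215 and 236 CPM in WT and 220 and 377 CPM in KO Cd31- samples. Here too the gates did not overlap, and the KO Cd31- sample of preparation 2 stood well above the other 3. The log2 fold change was -1.31 ± 0.29 (SE, edgeR adjusted p = 0.0137). Its constitutive counterpart Hsp90ab1 stood at 2287, 2285, 1817 and 2296 CPM in Cd31+ and at 1955, 2023, 1659 and 2307 CPM in Cd31- samples (WT, then KO). The Hsp90ab1 values overlapped over nearly their whole range, with a log2 fold change of 0.01 ± 0.24 (SE, edgeR adjusted p = 0.979) whose sign turns with RLE scaling (-0.02).

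Hspb1 stood at 116 and 119 CPM in WT and at 60.3 and 90.1 CPM in KO Cd31+ samples, against 112 and 509 CPM in WT and 211 and 376 CPM in KO Cd31- samples. The gates overlapped because the WT Cd31- sample of preparation 1 was no higher than WT Cd31+ cells. The log2 fold change was -1.79 ± 0.48 (SE, edgeR adjusted p = 0.0302). That low Cd31- sample held 26 fibroblast-like wells of 42, and the other 3 Cd31- samples held 1 of 12, 9 of 40 and 1 of 14. In it, fibroblast-like wells had 32.2 CPM of Hspb1 and smooth muscle-like wells 245 CPM.

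Hspa5 also did not overlap between the gates, with 650 to 825 CPM in Cd31+ and 1020.2 to 1763 CPM in Cd31-, but it did not pass the test (log2 fold change -0.81 ± 0.26 SE, edgeR adjusted p = 0.0582). It was called with DESeq2 (adjusted p = 0.0176) and with edgeR without the WT Cd31- sample of preparation 2 (adjusted p = 0.00914), and not in the other 13 alternative fits. Hspa5, Hsph1 and Hsp90aa1 were thus 3 of 10 members that lay wholly lower in Cd31+, where 8.98% of all genes tested did. Hspa8 had 576 to 771 CPM in Cd31+ and 731 to 1047 CPM in Cd31- samples (-0.55 ± 0.25 SE, edgeR adjusted p = 0.178). Hspe1 had 56.5 to 78.0 CPM in Cd31+ and 62.1 to 105 CPM in Cd31- samples (-0.30 ± 0.31 SE, edgeR adjusted p = 0.573). Dnajb1 had 58.0 to 117 CPM and 82.0 to 175 CPM, respectively (-0.74 ± 0.34 SE, edgeR adjusted p = 0.177). The Hsp70 pair spanned wide ranges in Cd31+ cells and stood higher in Cd31+ than in Cd31- cells in WT of preparation 1, and the log2 fold changes were -0.71 ± 0.34 (SE, edgeR adjusted p = 0.194) for Hspa1a and -0.99 ± 0.65 (SE, edgeR adjusted p = 0.353) for Hspa1b. In sums over cells, fewer cells of a type and less RNA per cell cannot be told apart.

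**Figure D1:**
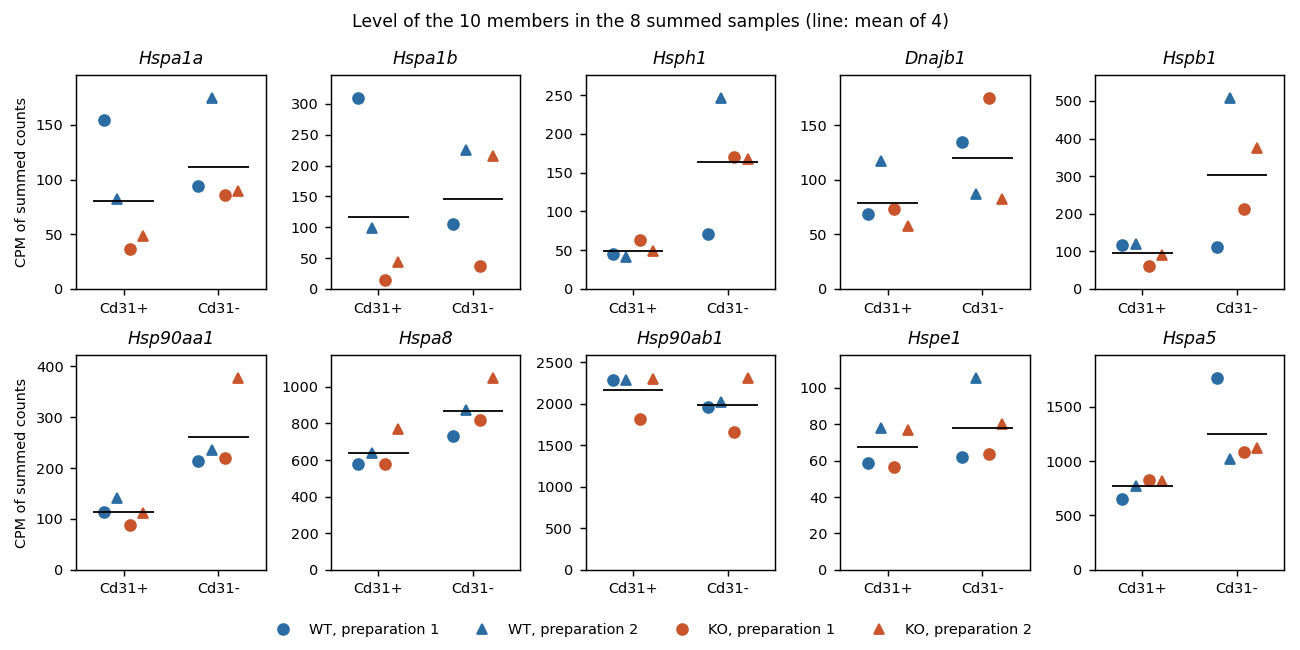
CPM (linear axis from 0) of each member in the 8 summed samples, by gate, with circles for preparation 1, triangles for preparation 2, blue for WT, orange for KO and a line at the mean of 4 samples. Hsph1, Hsp90aa1 and Hspa5 have no overlap between the gates, Hsp90ab1 lies between 1659 and 2307 CPM in all 8 samples, and Hspa1b reaches 310.4 CPM in 1 WT Cd31+ sample.

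The gate calls rested on few samples. In fits without 1 Cd31+ sample, which leave a single sample in a group, few or none of the 3 calls held. Calls over all genes were also fewer in those fits. Over all fits without 1 sample, the Hspb1 call was lost most often. The log2 fold changes in them ran from -2.16 to -1.26 for Hsph1, -2.14 to -1.05 for Hspb1 and -1.48 to -1.06 for Hsp90aa1. In wells with at least 100000 counts the Hspb1 call was lost (edgeR adjusted p = 0.0564), where 895 genes rose and 863 fell of 12514. All 3 calls held with only endothelial-like wells of the Cd31+ gate and other wells of the Cd31- gate. In that fit 1337 genes rose and 1358 fell of 12658.

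Other chaperones were read from fixed lists. Of 55 further chaperones and co-chaperones, 12 fell and 1 rose in Cd31+, beside 9.25% and 9.79% of all genes, with a list median of -0.34. Small heat shock genes known from muscle made up 5 of the 12 (Hspb2, Hspb6, Hspb7, Hspb8 and Cryab). Hspb6 stood at 8.35 ± 3.60 CPM in Cd31+ and 217 ± 51.1 CPM in Cd31- samples (mean ± SD, n = 4). Its log2 fold change of -4.81 ± 0.44 (SE) passed the edgeR test (adjusted p = 2.88e-04). Hspb7 (log2 fold change -6.76), Cryab (-3.61) and Hspb8 (-3.04) fell as well, with edgeR adjusted p from 2.88e-04 to 3.96e-04. Bag3, the co-chaperone that links Hspb8 to Hsp70, fell by 1.57 on the log2 scale (SE 0.31, edgeR adjusted p = 0.00855), from 82.2 ± 16.6 CPM in Cd31- to 29.9 ± 4.68 CPM in Cd31+ samples. The Bag3 call was lost without either KO Cd31+ sample and in wells with at least 100000 counts. The others that fell, named after their values were seen, were Hspa4, Hspa2, Hspb2, Dnajb4, Bag2, Stip1 and the collagen chaperone Serpinh1.

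Hspa12b, an atypical Hsp70 known from endothelium, was the single gene of that list that rose, with 57.6 to 67.8 CPM in Cd31+ and 0 to 2.02 CPM in Cd31- samples (log2 fold change 5.66 ± 0.58 SE, edgeR adjusted p = 4.38e-04). Hsf1, the master regulator of the heat shock response, had 37.0 to 41.7 CPM in Cd31+ and 8.64 to 48.0 CPM in Cd31- samples and did not pass the test (0.31 ± 0.52 SE, edgeR adjusted p = 0.750). Hsf2, a related factor, stood at 9.12 ± 2.64 CPM in Cd31+ and 10.8 ± 1.68 CPM in Cd31- samples (-0.37 ± 0.58 SE). The partners of Hspe1 and Hspa5 in the mitochondrion and the ER did not pass either: Hspd1, which forms the mitochondrial chaperonin with Hspe1, had a log2 fold change of -0.16 ± 0.24 (SE), Hspa9, the mitochondrial Hsp70, -0.27 ± 0.31, and Hsp90b1, the Hsp90 of the ER, 0.04 ± 0.26. Dnaja1, a constitutive Hsp40, had 0.42 ± 0.32.

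None of the 8 subunits of the cytosolic chaperonin was called, with a median log2 fold change of 0.04 and 0 of 8 at an unadjusted p under 0.05. Of 20 genes of ER folding and the unfolded protein response, 1 fell, the transcription factor Atf4 (-1.21 ± 0.30 SE, edgeR adjusted p = 0.0232), and this call was lost without any 1 of the Cd31+ samples or the KO Cd31- sample of preparation 1. Of 15 immediate early genes, 5 fell in Cd31+: Atf3 (-3.71), Nr4a1 (-2.79), Socs3 (-2.78), Fos (-2.41) and Egr1 (-1.45), with edgeR adjusted p from 0.00109 to 0.0178. The calls of Egr1 and Socs3 were lost in some fits without 1 sample and, with that of Nr4a1, in wells with at least 100000 counts. The part of these early response genes in the gate differences of Hsph1, Hspb1 and Hsp90aa1 was not tested.

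**Figure D2:**
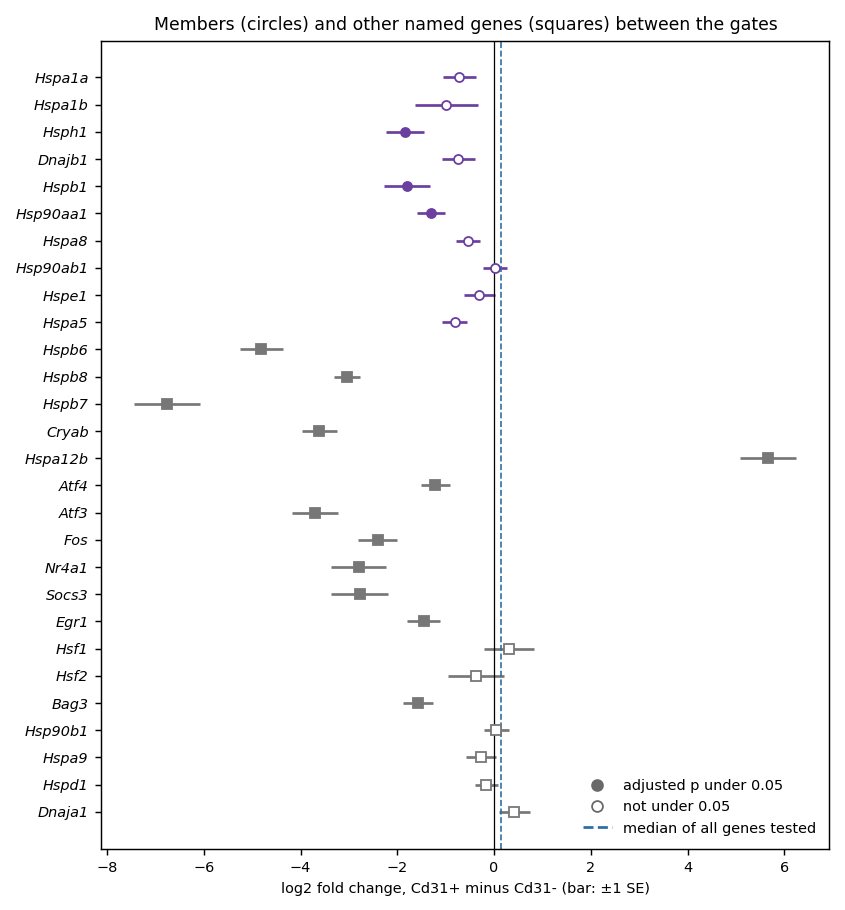
Log2 fold change of Cd31+ minus Cd31- for the 10 members (circles) and the other named genes (squares), with bars of 1 SE, filled symbols for an edgeR adjusted p under 0.05 and a dashed line at the median of all genes tested (0.15). Hsph1, Hspb1 and Hsp90aa1 are filled and below 0, Hspb7 (-6.76) and Hspb6 (-4.81) lie farthest to the left, and Hspa12b alone is filled and above 0.

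The question of genotype was whether endothelial loss of amotl2 shifts chaperone levels in the Cd31+ cells in which Cre acts. The Hsp70 pair differed most and the constitutive members least, but no member passed the test over all genes. With edgeR's quasi-likelihood test, 0 of 12702 genes were called between KO and WT Cd31+ samples (0% of genes tested), whereas 3.68% had an unadjusted p under 0.05, among them 2 of the 10 members. EYFP, which marks the cells where Cre acted, itself had an edgeR adjusted p of 0.0596 in this fit and passed in 10 of 12 alternative fits. With DESeq2, 0.291% of genes were called.

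Hspa1a stood at 155 and 82.7 CPM in WT and at 36.6 and 48.3 CPM in KO Cd31+ samples. Both KO samples lay below both WT samples, and WT was 4.23-fold higher in preparation 1 and 1.71-fold higher in preparation 2. The log2 fold change was -1.46 ± 0.36 (SE, edgeR p = 0.00276, adjusted p = 0.9995), from 2 preparations of each genotype. With DESeq2 the adjusted p was 0.0406.

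Hspa1b stood at 310.4 and 98.8 CPM in WT and at 14.8 and 43.9 CPM in KO Cd31+ samples. The order was as for Hspa1a and the spread wider, with WT 20.9-fold higher in preparation 1, where each genotype had its own plate, and 2.25-fold higher in preparation 2 on the shared plate. The log2 fold change was -2.76 ± 0.64 (SE, edgeR p = 0.00172, adjusted p = 0.9995), and the DESeq2 adjusted p was 0.696. Both genes were called without the filter on low counts, where 26 genes were higher and 78 lower in KO of 16174 tested. Some fits without 1 sample, which leave a single sample in 1 genotype, called a gene of the pair. Those fits called other genes as well, where the reported fit called 0. The log2 fold changes without 1 sample ran from -1.83 to -0.98 for Hspa1a and from -3.86 to -1.76 for Hspa1b. The ratio of Hspa1b to Hspa1a counts, which have nearly equal numbers of windows of their own, was 2.004 and 1.20 in WT and 0.405 and 0.910 in KO Cd31+ samples.

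Median depth per well was 119656 in WT and 252839 in KO Cd31+ wells in preparation 1, and 161532 and 58190 in preparation 2. No member was called in the fits on thinned wells or on wells with at least 100000 counts. Over all 12 alternative fits, these included, the log2 fold change of Hspa1a ran from -1.83 to -0.98. That of Hspa1b ran from -3.86 to -1.76. The part of depth in the difference was not tested further. The WT sample of preparation 1, which had the highest Hspa1a of the Cd31+ samples and the highest Hspa1b of all 8 samples, was also the sample with adipocyte markers. In endothelial-like wells alone, which leave out the cluster led by Cfd, the log2 fold changes were -1.56 for Hspa1a and -2.89 for Hspa1b. The cluster left out had 37.8 CPM of Hspa1a and 124 CPM of Hspa1b in that WT sample. The fit keeps an endothelial-like cluster of 154 wells found only in that sample, with 202 and 401 CPM, respectively. The part of that cluster in the difference was not tested. The share of wells with a count also differed, although not alike in every cluster (shares by cluster below). With every well thinned to 20000 counts, Hspa1b had a count in 76.2% (95% exact interval 70.2 to 81.5) of WT and 12.9% (9.3 to 17.2) of KO Cd31+ wells in preparation 1. In preparation 2 the shares were 50% (35.5 to 64.5) and 33.7% (24.03 to 44.5), with overlapping intervals. For Hspa1a, preparation 1 gave 56.6% in WT against 20.5% in KO, and preparation 2 gave 40.0% against 29.2%. In the cluster of 154 WT wells of preparation 1, the thinned shares were 69.5% for Hspa1a and 88.3% for Hspa1b. Without thinning, the shares of wells with Hspa1b were 84.7% and 21.5%, then 66.0% and 43.8%. These intervals cover counting error only, as PCR copies are not independent molecules. In preparation 2 the 5 wells with the highest counts of Hspa1a held 69.6% of its counts in WT and 57.7% in KO, against 19.5% and 39.2% in preparation 1. However, 5 wells are a larger part of 50 WT or 89 KO wells (preparation 2) than of 235 or 302 (preparation 1). For Hspa8, found in nearly all wells, the top 5 wells held 43.6% (WT) and 26.2% (KO) in preparation 2, up from 11.2% and 8.77%. Whether Hspa1a was concentrated in few wells beyond the effect of well number and depth was not tested.

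The other inducible members gave no call between genotypes. Hspb1 (log2 fold change -0.62 ± 0.31 SE) and Hsp90aa1 (-0.32 ± 0.29) lay lower in both KO samples than in both WT samples, as did Hspa1a and Hspa1b, so that 4 of 10 members were wholly lower in KO, where 14.6% of genes were. Hsph1 (0.37 ± 0.29) and Hspa5 (0.22 ± 0.25) lay wholly higher in KO, where 14.9% of genes did. Dnajb1 had -0.51 ± 0.32, Hspa8 0.17 ± 0.28, Hsp90ab1 -0.13 ± 0.27 and Hspe1 -0.01 ± 0.32, each with an edgeR adjusted p of 0.9995. The inducible members other than the pair summed to 343 and 418 CPM in WT and to 285 and 309 CPM in KO Cd31+ samples. Of the 55 other chaperones, 2 had an unadjusted p under 0.05, and their list median was 0.07 beside 0.00 for all genes. Of the 15 immediate early genes, 13 had a log2 fold change below 0 in KO and 4 an unadjusted p under 0.05 (Zfp36, Btg2, Fos and Egr1, named after their values were seen), with a list median of -0.65. None of them was called, Socs3 (0.37) and Klf6 (0.02) were above 0, and the part of the list in the difference of the Hsp70 pair was not tested.

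In Cd31- cells, where no EYFP was counted, no gene was called between genotypes by edgeR (0% of 10544 genes, 275 at an unadjusted p under 0.05, none of them a member). Hspa1a stood at 93.7 and 175 CPM in WT and at 86.0 and 89.6 CPM in KO Cd31- samples, and Hspa1b at 106 and 226 CPM in WT and at 37.1 and 215 CPM in KO. The genotypes overlapped for Hspa1b, which was higher in preparation 2 in both, and the log2 fold changes were -0.59 ± 0.54 (SE) and -0.34 ± 0.81. The difference of the genotype effect between the gates gave no call either (0% of 12729 genes, 657 at an unadjusted p under 0.05, none of them a member), at -0.90 ± 0.68 (SE) for Hspa1a and -2.43 ± 1.31 for Hspa1b (edgeR adjusted p = 0.988). A genotype effect particular to Cd31+ cells was therefore not shown. Between the preparations, 0% of genes were called and 5.51% had an unadjusted p under 0.05. Hspb1 was the single member among these, higher in preparation 2 by 0.93 ± 0.37 on the log2 scale (SE, edgeR p = 0.0391, adjusted p = 0.836).

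The ratio of summed counts of inducible to constitutive members was below 1 in all 8 samples. It was 0.226 and 0.159 in WT and 0.103 and 0.101 in KO Cd31+ samples, and 0.162, 0.368, 0.248 and 0.287 in Cd31- samples in the same order. The means were 0.147 ± 0.0591 and 0.266 ± 0.0856 (SD, n = 4), and the gates overlapped. For the matched pair of Hsp90 genes the gates did not overlap, with 0.0488 to 0.0616 counts of Hsp90aa1 per count of Hsp90ab1 in Cd31+ and 0.110 to 0.163 in Cd31- samples. The summed Hspa1a and Hspa1b counts per count of Hspa8 were 0.807 and 0.285 in WT and 0.0893 and 0.120 in KO Cd31+ samples, against 0.150 to 0.459 in Cd31- samples. The pair made up 57.6% of the inducible counts in WT Cd31+ cells of preparation 1 and 15.3% in KO Cd31+ cells of the same preparation. These ratios are descriptions with no test.

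**Figure D3:**
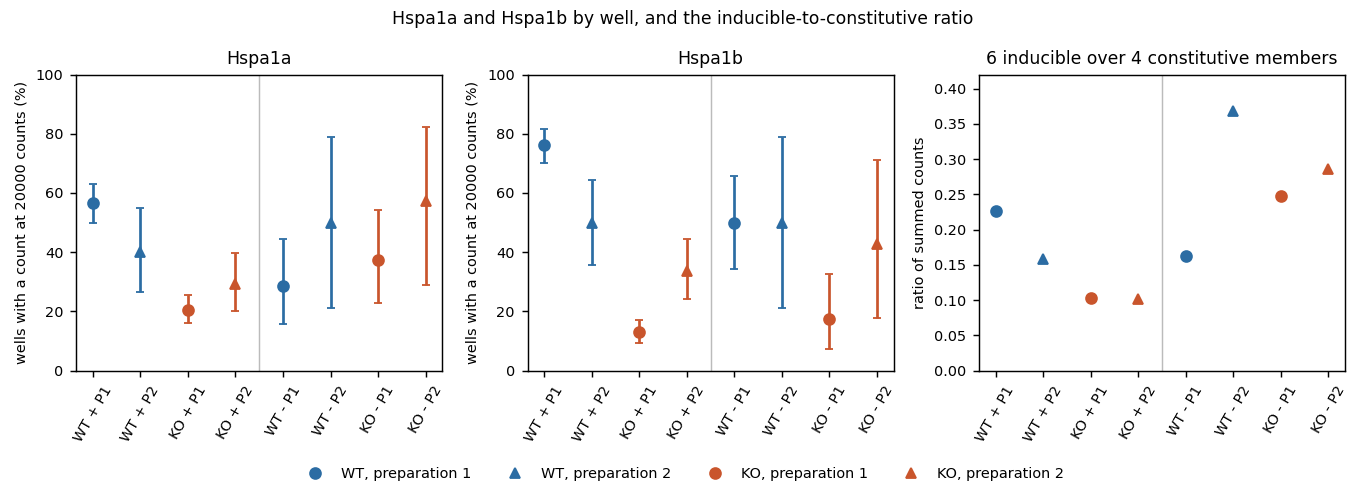
Left and centre, percent of wells with a count of Hspa1a and Hspa1b after thinning every well to 20000 counts, with 95% exact binomial intervals, in the 8 summed samples (+ and - for the gates, P1 and P2 for the preparations). Right, summed counts of 6 inducible over 4 constitutive members, where the KO Cd31+ samples are lowest at 0.103 and 0.101 and the WT Cd31- sample of preparation 2 is highest at 0.368.

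Hsp90ab1, Hspa8 and Hspa5 were found in nearly all wells, whereas the constitutive Hspe1 lay among the inducible members. With wells thinned to 20000 counts, Hsp90ab1 had a count in 99.9%, Hspa8 in 98.9% and Hspa5 in 94.5% of Cd31+ wells (mean of 4 samples). Hsp90aa1 followed at 69.7%, Hspb1 at 60.8%, Hspe1 at 54.3%, Hspa1b at 43.2%, Dnajb1 at 41.0%, Hspa1a at 36.6% and Hsph1 at 26.5%. The coefficient of variation over wells was lowest for Hsp90ab1 (0.369) and Hspa8 (0.508), stood at 1.34 for Hspe1 and 1.16 for Hsp90aa1, and was highest for Hsph1 (2.41), Hspa1a (2.11) and Hspa1b (2.10), an order that partly follows the mean count. Without thinning, the median of Hspa1b in WT Cd31+ wells of preparation 1 was 202 CPM, the 90th percentile 872 CPM and the highest well 2278 CPM. In KO wells of that preparation, also without thinning, the median was 0, the 90th percentile 46.9 CPM and the highest well 312 CPM. The median depth of these wells was 119656 in WT and 252839 in KO. At 20000 counts, WT wells of preparation 1 had counts of 3.29 ± 1.35 of the 6 inducible members (SD over 235 wells), WT wells of preparation 2 of 3.20 ± 1.34, and KO wells of 1.91 ± 1.19 and 2.71 ± 1.24.

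The members did not rise and fall together from well to well. Over 45 pairs, the Pearson correlation of log2(CPM + 10) within the 4 Cd31+ samples, averaged over them, ran from -0.07 to 0.31 with a median of 0.05. Only the pair of Hspa1a and Hspa1b reached 0.3, with 0.45 and 0.40 in WT and 0.15 and 0.22 in KO samples. The 15 pairs of inducible members had a median of 0.04 and the 6 pairs of constitutive members 0.07. The next pair was Hspa8 with Hsp90ab1 at 0.19. The wells of a sample share plate, pool and library preparation, the counts are sparse, and the shared sequence of Hspa1a and Hspa1b bears on their correlation, so these values are a description. The mean of the inducible members correlated with the mean of the 15 early genes at 0.27, 0.22, 0.28 and 0.25 in the 4 samples. Among 5274 other genes with a count in at least 20% of wells, none had a mean correlation of 0.3 or more with the inducible members. The closest, named after its value was seen, was Zfp36, an early response gene, at 0.25.

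**Figure D4:**
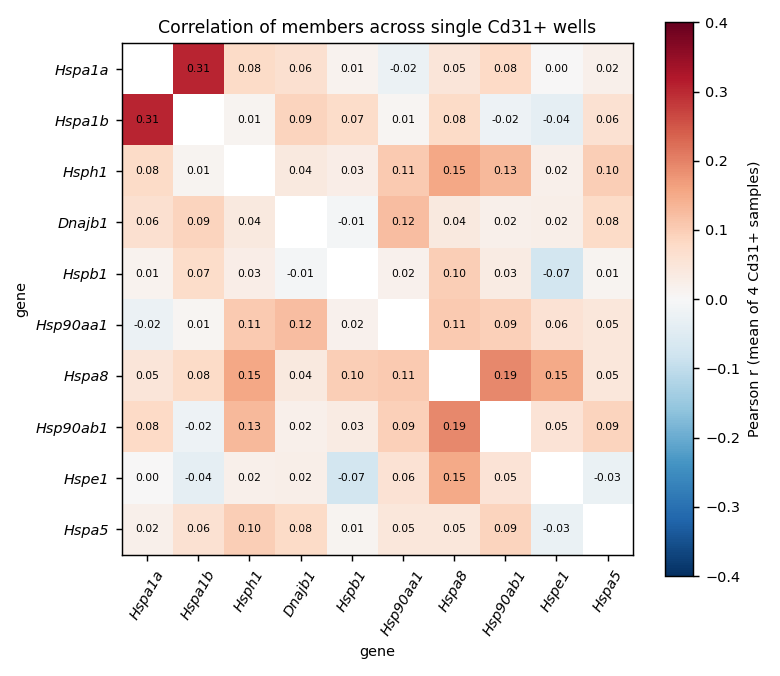
Pearson correlation of log2(CPM + 10) of each pair of members across single Cd31+ wells thinned to 20000 counts, as the mean of the correlations within 4 samples (colour scale from -0.4 to 0.4). Hspa1a with Hspa1b stands alone at 0.31, and the other 44 pairs lie between -0.07 and 0.19.

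Clusters formed without the members and without the other chaperone and early genes placed the levels by cell class. Hsph1 and Hspb1 followed the smooth muscle-like wells in both gates. In the smooth muscle-like cluster, Hsph1 ran from 114 to 225 CPM and Hspb1 from 245 to 555.5 CPM in the 4 Cd31- samples. The 5 WT and 6 KO smooth muscle-like wells that fell in the Cd31+ gate of preparation 1 had 185 and 276 CPM of Hsph1 and 212 and 341 CPM of Hspb1. In the endothelial-like clusters of all Cd31+ samples, Hsph1 ran from 6.71 to 101 CPM and Hspb1 from 48.7 to 148 CPM. The unnamed cluster of 34 Cd31+ wells, led by Cfd and Car3, had 193 and 87.4 CPM of Hspb1 in WT and KO of preparation 1. Of the 10 endothelial markers, 9 were found in many wells of this cluster. Cfd itself stood at 547 CPM in the WT and 0.285 CPM in the KO Cd31+ sample of preparation 1.

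Hspa5 instead followed the fibroblast-like wells, with 2178 CPM in 26 WT and 2035 CPM in 9 KO wells of preparation 1, against 803 to 1067 CPM in smooth muscle-like wells of the Cd31- gate and 643 to 879 CPM in endothelial-like clusters. Fibroblasts are known for secreting collagen through the ER. The Hsp70 pair was highest in an endothelial-like cluster of 154 wells that came only from the WT Cd31+ sample of preparation 1 and was led by Cd74 and H2-Aa, with 202 CPM of Hspa1a and 401 CPM of Hspa1b. A cluster from 1 sample may be that sample rather than a cell type.

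In the endothelial-like clusters that both genotypes share, Hspa1b was again lower in KO. In the largest endothelial-like cluster (led by Aldh3a1 and Frzb), Hspa1b had 61.7 and 109 CPM in WT and 11.8 and 39.6 CPM in KO samples. In the next (led by Nt5e and Gkn3) it had 88.5 and 83.0 CPM in WT and 9.25 and 46.4 CPM in KO. Hspa1a in the same clusters had 21.04 and 88.8 CPM, then 48.9 and 74.6 CPM in WT, and 37.4 and 39.6 CPM, then 27.0 and 56.9 CPM in KO, so that in preparation 1 its level in the largest cluster was not lower in KO. A smaller endothelial-like cluster (led by Slc6a6 and Ssu2) held 12 WT and 9 KO wells of preparation 1. Its Hspa1b was 261 CPM in WT and 105 CPM in KO, and its Hspa1a 136 and 76.1 CPM. This KO level of Hspa1b lay above the WT levels of the same preparation in the largest and the next cluster. In the smooth muscle-like wells of the Cd31- gate, Hspa1b had 52.9 and 237 CPM in WT and 44.4 and 232 CPM in KO, so the preparations stood farther apart than the genotypes. These levels and shares are descriptions, since the wells of a cluster share their sample.

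**Figure D5:**
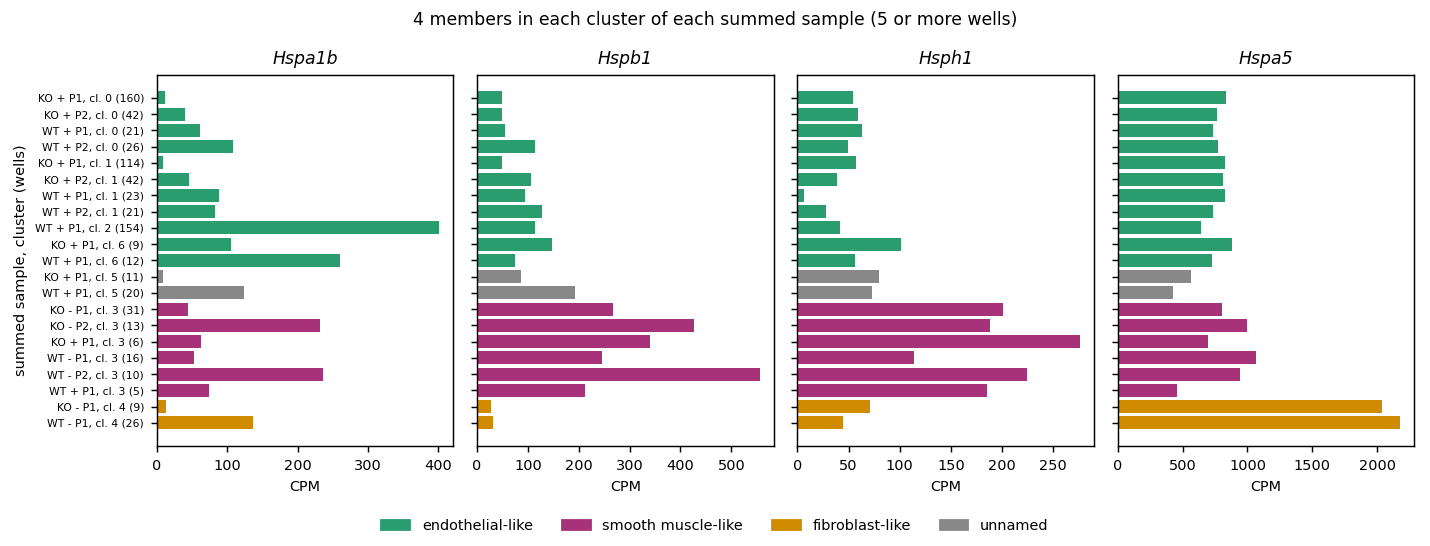
CPM (linear axis from 0) of 4 members in each cluster of each summed sample with at least 5 wells, coloured by cell class, with the number of wells in parentheses. Smooth muscle-like bars are the highest for Hsph1 and Hspb1 in both gates, fibroblast-like bars exceed 2000 CPM for Hspa5, and the endothelial-like cluster of 154 WT wells has the highest Hspa1b at 401 CPM.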

How the data were processed

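Single aortic cells sorted by Cd31 and Cd45 from WT and amotl2 ec-/ec- mice were sequenced with Smart-seq2. The deposited values are raw counts per gene and well, made by the authors with STAR 2.7.7a on GRCm38 with spike-ins and EYFP added, Picard 2.22.0 for duplicates and HTSeq 0.9.1; the annotation release is not given in the sources used here. Of all counts, 51.9% were on genes, 1.25% on spike-ins and 46.9% on summary lines, which entered neither library sizes nor tests (32% aligned to several places and 0.586% ambiguous). No strand information was used, so antisense reads cannot be told apart.

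Wells with at least 20000 gene counts and 500 genes were kept, and counts were summed by genotype, gate and preparation into 8 samples of 926398 to 94881185 counts. Sums were tested with edgeR 4.0.16 (quasi-likelihood, TMM, low-count filter, Benjamini-Hochberg over all genes, threshold 0.05) on R 4.3.3, and with DESeq2 1.42.0 as an alternative. CPM is counts scaled to 1000000 gene counts. Shares of wells have exact binomial 95% intervals. For shares of wells (unless given without thinning), coefficients of variation and correlations, each well was thinned to 20000 counts. Medians, percentiles, highest wells and the part held by the top 5 wells used all counts. Wells were clustered with Seurat 5.3.0 (resolution 0.5) without the members and the listed stress genes and named from marker lists; doublets were not called. Genes named were all members, up to 5 called genes of each list with the smallest p between the gates, and Hsf1, Hsf2, Bag3, Cryab, Hspb6, Hspb8, Hsp90b1, Hspa9, Hspd1 and Dnaja1; genes outside this rule are marked in the text. The members and lists were chosen with earlier results of these data known. Replicate numbers are the sort numbers in the labels, so they pair the samples. Deviations of same-numbered samples from their group means correlated at 0.0428 to 0.139 over 12729 genes. The fits were also run on simulated data with a smaller spread than these data, so that run does not measure their power or error here. Alternatives were RLE size factors, no filter, DESeq2, wells with at least 100000 counts, thinned wells, wells of matching clusters, the replicate block, all samples in 1 fit, and leaving out each sample. Levels per unique window were added after seeing the data.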

Additional observations from a re-analysis of the deposited data

Results flagged for a closer look

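Groups of 4 samples were compared for a single value far from the other 3, in 28 groups, and 5 passed Dixon's 95% critical value, where chance flags about 1 in 20 groups. The WT Cd31- sample of preparation 2 had 175 CPM of Hspa1a, with the other 3 between 86.0 and 93.7 CPM, and it held 12 wells. The KO Cd31- sample of preparation 2, with 14 wells, had 377 CPM of Hsp90aa1. The WT Cd31- sample of preparation 1 had 1763 CPM of Hspa5, and 26 of its 42 wells were fibroblast-like. The KO Cd31+ sample of preparation 1, the deepest of all, had 1817 CPM of Hsp90ab1, with the other 3 between 2285 and 2296 CPM. The WT Cd31+ sample of preparation 2 had 0.0616 counts of Hsp90aa1 per count of Hsp90ab1. The causes were not tested.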

How the results depend on the processing

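Of the results for single genes and shares of wells, 564 values under alternatives kept their direction and side of the threshold, 29 lost a call, 20 gained one, 21 turned sign and 13 shares moved. Leaving out 1 sample changed which members were called between the gates and between KO and WT Cd31+ samples. The number of calls over all genes changed as well. Between KO and WT, 2 members were called with no filter on low counts and 1 with DESeq2. Over all genes that comparison gave 26 higher and 78 lower in KO with no filter and 10 higher and 27 lower with DESeq2, against 0 in the reported fit. The median member was found in 57.6% of wells after thinning and in 89.0% of wells with at least 100000 counts. With the replicate block, which keeps the pairing by preparation, 3 members were called between the gates and 0 between genotypes, and it changed no other call of a member; Hspa1b had a log2 fold change of -2.79 in KO.

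None of the differences that turned sign was called in the reported fits. Between the gates, Hsp90ab1 had -0.024 with RLE scaling, -0.023 with DESeq2 and -0.0069 in matching clusters, and -0.10 to 0.17 without 1 sample. Without 1 sample Hsf1 had -0.033 to 1.16 and Hsp90b1 -0.086 to 0.22. Hspd1 had 0.11 in wells with at least 100000 counts. Between KO and WT Cd31+ samples, Hspe1 had 0.028 in those wells, 0.025 in matching clusters and -0.36 to 0.28 without 1 sample, Hspa8 -0.16 to 0.45 and Hsp90ab1 -0.42 to 0.11. In Cd31- samples Hspa1a had 0.21 after thinning and Hspa1b -2.13 to 0.46 without 1 sample. The difference of the genotype effect between the gates was 0.14 for Hspa1a in wells with at least 100000 counts. The causes were not tested. Few preparations, Cd31- samples of 12 to 42 wells and shared sequence limit the precision. A sample left alone in its group was assumed to vary like the other groups.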

Other observations

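In Cd31- samples, 17 of the 20 genes of ER folding and the unfolded protein response had a log2 fold change below 0 in KO relative to WT, with a list median of -0.35 beside -0.03 for all genes, and 0 were called by edgeR (2 at an unadjusted p under 0.05). The fibroblast-like wells, in which Hspa5 was highest, were 26 of 42 in WT and 9 of 40 in KO of preparation 1, and their part in these values was not tested. In Cd31+ samples the list median was 0.11, with 8 of 20 genes below 0.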
